A study of Ovis aries with 2 samples.

Results

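At 929 positions of the sheep genome, subcutaneous fat of a thin-tail and of a fat-tail library yielded the same transcribed locus under 2 kinds of name. One deposited table listed the locus under an Ensembl sheep gene identifier, which names a gene of the reference annotation. The other table listed it under a name of its own, which marks a locus assembled from that library's reads. Loci were paired between the tables when each overlapped the other best, over no less than 80% of either span. Members were chosen by their names and by measured values: the identifier in exactly 1 table, a span of at least 1000 bp in both, FPKM above 0 in both and at least 1 FPKM in at least 1 library. FPKM counts fragments per kilobase of transcript, scaled to the mapped fragments of the library. The identifier stood in the thin-tail table for 275 of the members and in the fat-tail table for 654, out of 28177 matched pairs. The former are called thin-tail identifiers below and the latter fat-tail identifiers. Members made up 8.43% of the 11017 pairs that met the same limits on overlap, span and FPKM, whatever their names. Since FPKM helped to choose them, the values below are a description.

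Each tail type had 1 library of poly(A) RNA, from native Iranian breeds slaughtered at 7 months after weaning at 90 days and 120 days on a common diet; no animal was treated. The sources used here give neither the breed behind each library nor whether it held 1 animal or several. The library called fat-tail here is the one with the word Fat in its title, a word that could also mean the tissue, and every direction below depends on that reading. The series' design text speaks of sequencing in duplicate, but 1 library of each type was analysed here, so no test was possible and each difference is one between these libraries. At 1 FPKM or more stood 19168 loci of the thin-tail and 19865 of the fat-tail table, and the total depth is unknown.

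Subcutaneous fat consists of lipid-storing adipocytes together with vessels, immune cells and stromal cells, and fat-tailed sheep lay down a further store of lipid in the tail. A gene's transcripts can be measured against models from an annotation or against models that a program builds from the reads. An annotated model has fixed ends, whereas a built model follows the reads and may reach beyond those ends. FPKM divides by transcript length, so it depends on which model received the fragments. Neither table pairs identifiers with gene names, and 0 of the 929 members' identifiers were found in the RefSeq gene table. The nuclear members are therefore described by position, with 4 identifiers as examples, and the tissue could not be checked against adipocyte markers. Positions are those of the tables, counted from 1, and the sources used here name no genome build. Strand is not given either, so overlapping genes on opposite strands could share fragments.

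The members are part of a larger set of identifiers held by 1 table alone. The tables shared 13315 identifiers, 1048 occurred only in the thin-tail and 1953 only in the fat-tail table. Members were 26.2% of the former and 33.5% of the latter, and no member's identifier occurred anywhere in the other table. Before the limits on span and FPKM, 948 pairs carried the identifier in the thin-tail table only and 1670 in the fat-tail table only. Of these, 532 and 1051 had values above 0 in both libraries. A further 237 and 384 stayed under 1 FPKM in both, and 20 and 13 spanned less than 1000 bp, which left the members. An assembled name was shared with further rows for 6 members with a thin-tail and 11 with a fat-tail identifier, so a few assembled genes were listed in pieces.

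The library whose table carried the identifier had the lower value at most members. Where the thin-tail table held the identifier, the median was 3.45 FPKM (quartiles 1.17 and 12.1) in the thin-tail and 4.69 (1.80 and 16.2) in the fat-tail library. Where the fat-tail table held it, the medians were 3.63 FPKM (1.87 and 10.5) in the thin-tail and 1.15 (0.402 and 4.16) in the fat-tail library. Expressed as log2((fat-tail FPKM + 1)/(thin-tail FPKM + 1)), which draws the ratios of low values towards equality, the median ratio was 0.37 (quartiles -0.21 and 0.94) for thin-tail identifiers and -0.94 (-1.55 and -0.43) for fat-tail identifiers. The medians thus lay 1.31 apart, on opposite sides of equality; with FPKM totals over all loci made equal, the thin-tail identifiers' median turned to -1.42, while that of all compared pairs moved from -0.12 to -2.28. Pairs assembled in both tables had a median of -0.12 over 9628 loci, and pairs with an identifier in both had -0.24 over 460. In tissue RNA of this kind, fewer cells of a type and less RNA per cell cannot be told apart. Thin-tail identifiers lay 0.49 above the pairs assembled in both, and fat-tail identifiers 0.82 below them.

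**Figure D1:**
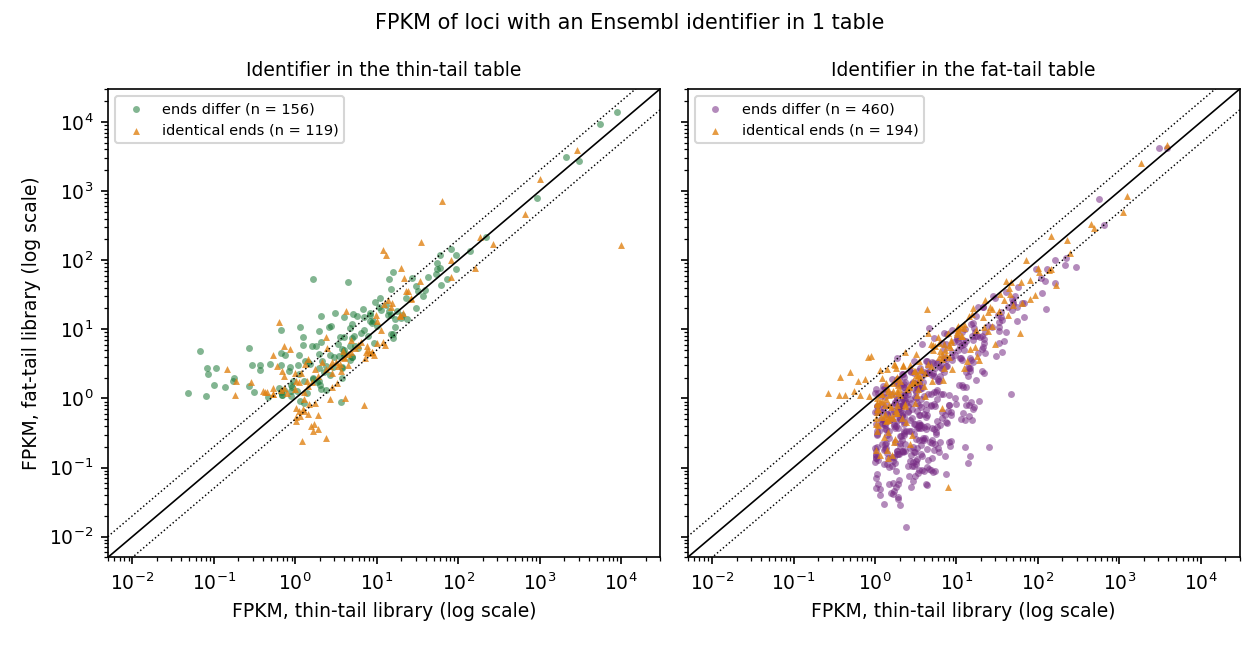
FPKM of each member in the thin-tail (horizontal, log scale) and the fat-tail library (vertical, log scale), with thin-tail identifiers on the left and fat-tail identifiers on the right; the solid line is equality and the dotted lines are 2-fold. In the left panel 184 of 275 loci lie above equality on the scale with 1 FPKM added, in the right panel 584 of 654 lie below it, and triangles mark loci with identical ends in both tables.

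Counts showed the same split. The ratio was above 0 for 184 of the 275 thin-tail identifiers (66.9%) and below 0 for 584 of the 654 fat-tail identifiers (89.3%), so 768 members (82.7%) were lower in the table with the identifier. Among pairs assembled in both tables, 56.9% were below 0. At least 2-fold higher in the fat-tail library were 62 thin-tail identifiers (22.5%) and 6 fat-tail identifiers (0.917%), against 8.3% of all 13117 compared pairs and 7.42% of the pairs within the same limits. At least 2-fold lower were 7 thin-tail identifiers (2.55%) and 299 fat-tail identifiers (45.7%), against 14.7% and 14.2%. The deposited intervals did not overlap for 61 of the 62 and for 291 of the 299, or 22.2% and 44.5% of their classes. The same condition was met by 7.26% of the pairs within the limits in the higher and 13.8% in the lower direction. In all, 361 members were at least 2-fold lower and 13 at least 2-fold higher in the table with the identifier, while 555 members lay within 2-fold. The FPKM limit used the same values, so these shares were not tested.

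**Figure D2:**
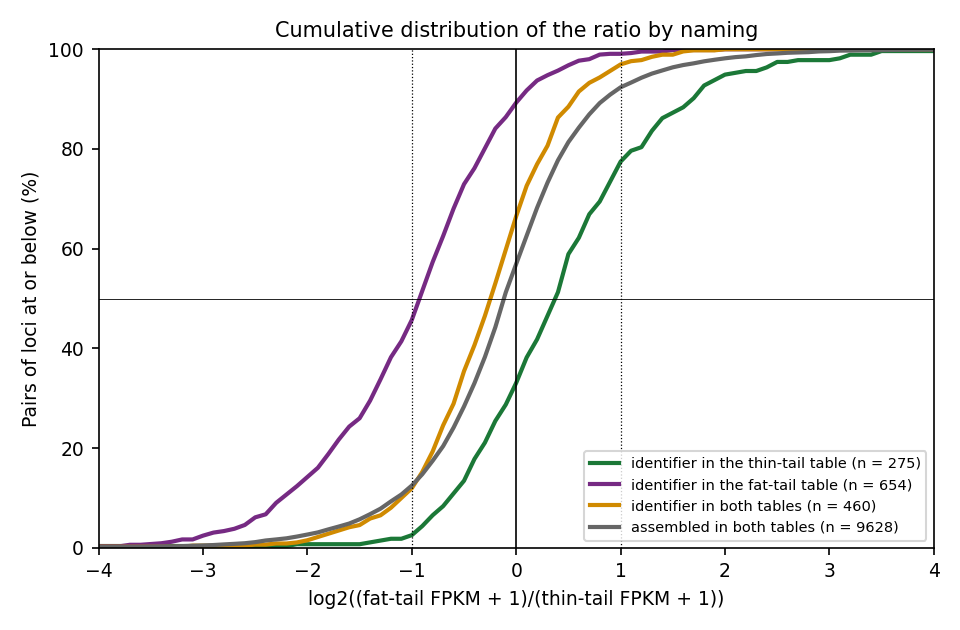
Cumulative share of pairs (vertical, percent) by log2 ratio of the fat-tail over the thin-tail library with 1 FPKM added (horizontal), for pairs named by identifier in 1, both or neither table; dotted lines mark 2-fold. The curve of fat-tail identifiers lies to the left, with a median of -0.94, that of thin-tail identifiers to the right, at 0.37, and both other curves lie between them, at -0.24 and -0.12.

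The FPKM limit could be met through 1 library alone, and such members had to differ. Both libraries reached 1 FPKM at 197 thin-tail identifiers and at 338 fat-tail identifiers. Only the fat-tail library reached it at 55 of the thin-tail identifiers, and only the thin-tail library at 23. For fat-tail identifiers the numbers were 13 and 303. With 1 FPKM or more in both libraries, the median ratios were 0.26 and -0.62, or 0.88 apart. At least 2-fold higher were 34 thin-tail identifiers (17.3%) and 2 fat-tail identifiers (0.592%), against 7.29% of pairs assembled in both tables. At least 2-fold lower were 3 thin-tail identifiers (1.52%) and 106 fat-tail identifiers (31.4%), against 9.85%. Under that condition pairs assembled in both tables had a median of -0.09.

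By their medians, thin-tail identifiers lay above fat-tail identifiers at each level examined. Grouped by the higher FPKM of the pair, the median ratio of thin-tail identifiers ran from 0.29, between 1 and 2 FPKM (65 loci), to 0.50, between 50 and 100 FPKM (16 loci). Fat-tail identifiers ran from -0.69 between 1 and 2 FPKM (171 loci) to -1.39 between 50 and 100 FPKM, where all 14 loci were lower in the fat-tail library. At 100 FPKM or more the medians were 0.39 over 22 loci and -0.82 over 29 loci. Those assembled in both tables stayed between -0.20 and -0.08 across these levels. The separation was thus present among abundant transcripts as well as among scarce ones.

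**Figure D3:**
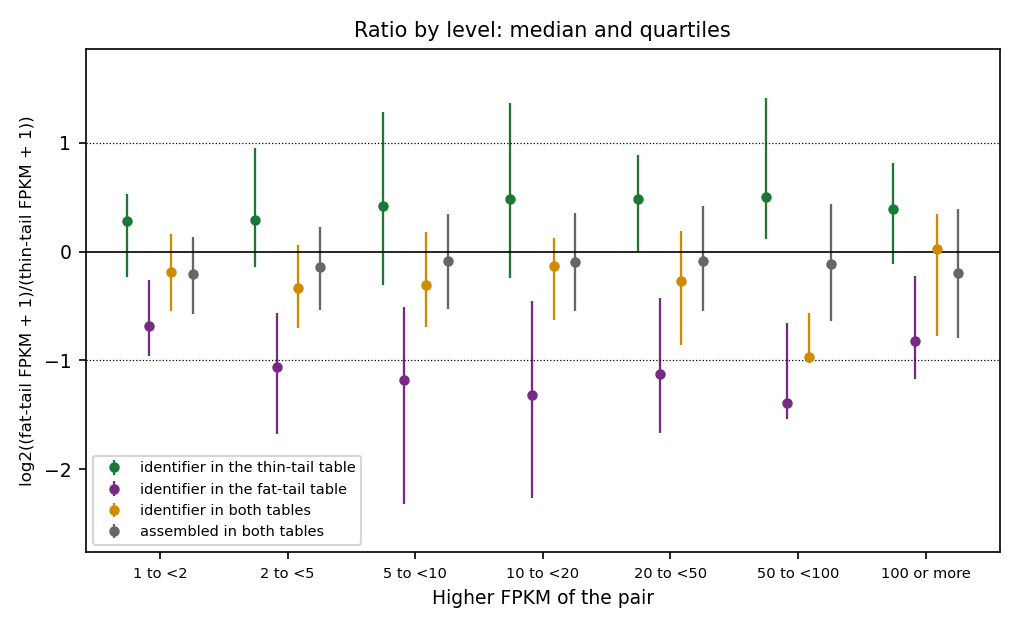
Median log2 ratio of the fat-tail over the thin-tail library, with 1 FPKM added (vertical; bars are quartiles over loci, not replicate error), by the higher FPKM of the pair (horizontal), for the 4 kinds of naming. Thin-tail identifiers stay above 0 and fat-tail identifiers below -0.6 at each level, as deposited.

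Members differed in length between the classes. The median span, taken as the shorter of the pair, was 12580 bp for thin-tail identifiers, 25323.5 bp for fat-tail identifiers and 16865 bp for pairs assembled in both tables. Fat-tail identifiers had a median ratio of -0.50 between 1000 and 2000 bp (23 loci) and of -1.07 between 50000 and 100000 bp, where 98 of 101 loci were lower in the fat-tail library. At 100000 bp or more the median of fat-tail identifiers was -0.96 over 86 loci. By comparison, pairs assembled in both tables went from 0.09 through -0.23 to -0.29 at these lengths. Thin-tail identifiers showed no such course: the median was -0.15 for the 19 loci of 1000 to 2000 bp, the only length at which it was below 0, and between 0.27 and 0.54 at the others. No other locus of either table overlapped 72.4% of thin-tail and 71.7% of fat-tail identifiers, against 61.1% of pairs assembled in both. On those members alone the medians were 0.39 and -0.999.

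The ends of the loci, which the rule used only through the overlap, followed a strict pattern. The assembled locus had the same start and end as the locus with the identifier at 119 thin-tail (43.3%) and 194 fat-tail identifiers (29.7%). At the remaining 156 and 460 members it was longer and contained the whole of the other locus. It was shorter at 0 members, and no end of it lay inside the locus with the identifier. The added length lay on the low-coordinate side alone at 64 and 188 members, on the high-coordinate side alone at 63 and 163, and on both sides at 29 and 109. Its median was 403.5 bp (quartiles 216.75 and 661.5) for thin-tail and 776.5 bp (350.25 and 1977.75) for fat-tail identifiers, or 2.05% and 3.18% of the span. Additions of 1000 bp or more were found at 27 thin-tail and 213 fat-tail identifiers, and the longest was 34342 bp.

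The ratio differed with the ends. At identical ends the median was 0.08 for thin-tail and -0.43 for fat-tail identifiers, 0.50 apart. Where the ends differed it was 0.49 and -1.17, or 1.66 apart. Pairs assembled in both tables had medians of -0.18 with identical and -0.11 with differing ends. Differing ends were found at 45 of the 62 thin-tail identifiers that were 2-fold higher, against 156 of all 275. They were found at 263 of the 299 fat-tail identifiers that were 2-fold lower, against 460 of all 654. Among pairs assembled in both tables the ends differed at 8455 of 9628. There they differed at 639 of the 735 that were 2-fold higher and at 1040 of the 1203 that were 2-fold lower. With an addition of 2000 bp or more, 108 of 112 fat-tail identifiers were lower in the fat-tail library, with a median of -1.64, and 7 of 8 thin-tail identifiers were higher in it, with a median of 1.09. Without the added FPKM these medians were -3.27 and 2.22. Across members with differing ends, which share their libraries, the Spearman correlation of added length with the ratio was 0.15 over 156 thin-tail and -0.24 over 460 fat-tail identifiers. Added length also went with span, at 0.35 and 0.27.

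**Figure D4:**
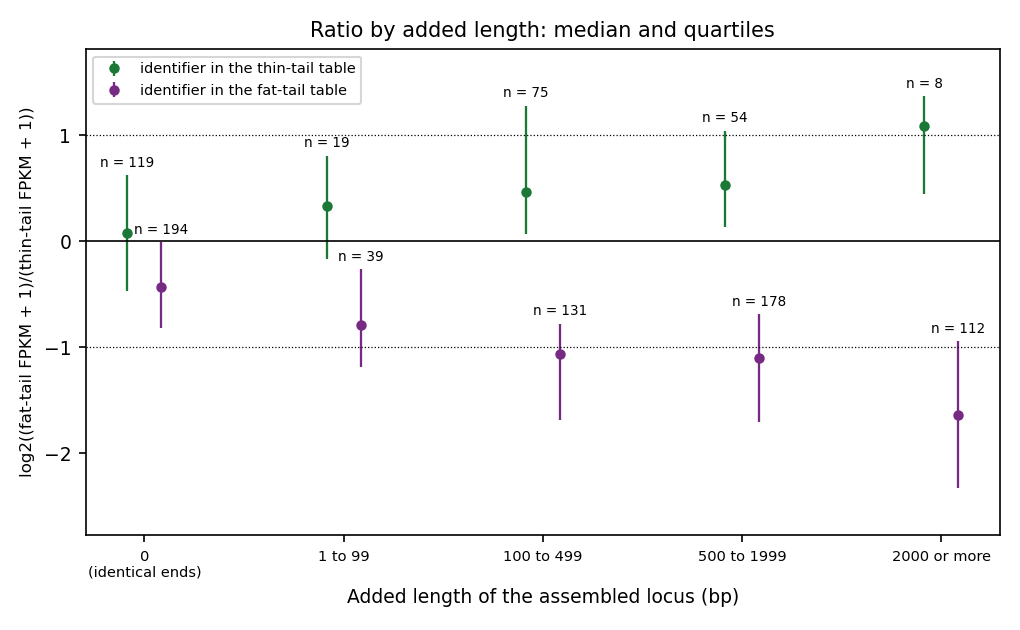
Median log2 ratio of the fat-tail over the thin-tail library, with 1 FPKM added (vertical; bars are quartiles over loci), by the length that the assembled locus adds to the locus with the identifier (horizontal, bp), with the number of loci above each bar. The medians lie 0.50 apart at identical ends and farther apart at each greater length, with only 8 thin-tail identifiers in the last group.

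By the medians of both classes, the values with the identifier rested on fewer fragments. A fragment number can be derived from the width of each deposited interval, if the width reflects counting error alone. For thin-tail identifiers the median was 47.5 implied fragments in the thin-tail and 70.7 in the fat-tail library. At the 119 of them with identical ends the order was the other way, with medians of 34.2 and 31.0. For fat-tail identifiers the median was 83.5 in the thin-tail and 20.5 in the fat-tail library. Of these 654 loci, 253 had fewer than 10 in the fat-tail library against 33 in the thin-tail one. Pairs assembled in both tables had medians of 177.4 and 151.5. The interval reached down to 0 for 163 fat-tail identifiers in the fat-tail library. The same widths, restated as a median half-width, were 44.2% of the FPKM there, compared with 21.9% in the thin-tail library. For thin-tail identifiers the median half-width was 29.0% in the thin-tail and 23.8% in the fat-tail library. By implied fragments the median log2 ratios were 0.32 and -1.49, with 61.1% of thin-tail identifiers above and 86.5% of fat-tail identifiers below 0.

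Over all members, implied fragments came out as whole numbers more often beside an identifier than beside an assembled name. Among values under 200 implied fragments, 52.8% were within 0.05 of a whole number for thin-tail identifiers in the thin-tail library, and 31.1% in the fat-tail library, where these loci were assembled. For fat-tail identifiers the shares were 58.5% in the fat-tail and 20.3% in the thin-tail library. For pairs assembled in both tables they were 16.3% and 19.4%, and for pairs with the identifier in both they were 41.6% and 46.0%. Most of this contrast lay at members with differing ends. There the shares for thin-tail identifiers were 49.6% in the thin-tail and 11.4% in the fat-tail library. For fat-tail identifiers they were 60.6% in the fat-tail and 12.5% in the thin-tail library. At identical ends, thin-tail identifiers had 57.5% in the thin-tail and 58.4% in the fat-tail library, so the naming made little difference. Fat-tail identifiers with identical ends had 52.4% in the fat-tail and 40.4% in the thin-tail library. Where they are not whole, more than counting may set the interval, and fragment ratios are no check on FPKM ratios there.

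Some members with a thin-tail identifier were many times higher in the fat-tail library. The 3 members named here, and the first 3 in the next paragraph, had at least 5 FPKM in 1 library. Their intervals did not overlap, and no other locus lay at their positions. Of the 275 thin-tail identifiers 67 met these conditions, 54 in the higher and 13 in the lower direction. These counts say only from how many loci the examples were drawn, since no share of all pairs is given for these conditions. ENSOARG00000007060 (chromosome 17, 8827171 to 8918625) measured 1.65 FPKM (1.05 to 2.26) in the thin-tail library, on 30 implied fragments. Its assembled counterpart in the fat-tail table ran 598 bp further and read 52.6 FPKM (47.8 to 57.3) on 483 implied fragments. A locus on chromosome 2 (242185986 to 242190773) had identical ends and read 12.1 FPKM (11.1 to 13.1) and 142.2 (129.2 to 155.2), an 11.8-fold difference. Its implied fragments, 546 and 477, lay in the opposite order. The locus on chromosome 14 from 800006, with 489 bp added in the fat-tail table, read 4.39 FPKM (3.34 to 5.44) and 48.0 (40.8 to 55.1). In all 3 the fat-tail library was the higher one, but fragments and FPKM did not scale together.

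Of the thin-tail identifiers, 91 (33.1%) were lower in the fat-tail library, 7 of them at least 2-fold. ENSOARG00000010907 (chromosome 13, 42692124 to 42711362) measured 6.89 FPKM (5.09 to 8.68) in the thin-tail and 0.807 (0.197 to 1.42) in the fat-tail library, on 58.9 and 7 implied fragments. A locus on chromosome 3 (8045506 to 8050548) measured 12.8 FPKM (9.97 to 15.6) and 5.98 (3.99 to 7.97), and one on chromosome 2 (173602065 to 173605247) measured 15.6 (12.8 to 18.5) and 7.61 (6.23 to 8.98). The last had 616 bp added in the fat-tail table and gave 118 and 122 implied fragments, close to each other though its FPKM differed. Of the 7 thin-tail identifiers at least 2-fold lower, 4 had intervals that did not overlap. Besides the chromosome 13 locus, these were a locus on an unplaced scaffold (18371 to 20540), at 4.07 and 1.03 FPKM, and loci on chromosome 20 (35755504 to 36365789), at 3.63 and 0.892, and chromosome 10 (75465173 to 75466183), at 1.89 and 0.360. These 3 were singled out after their values were seen, and the conditions for naming were not applied to them. Of the 4 loci, 2 had no other locus at their position, and another locus overlapped the one on chromosome 10. The chromosome 20 locus was the only 1 of the 7 with differing ends. The lowest ratio of any member, -5.92, belonged to a locus on chromosome 14 (53341130 to 53383109), at 9939 FPKM in the thin-tail and 163.7 in the fat-tail library. Its intervals ran from 0 to 29818 and from 0 to 17269, so its values carry no direction. Another locus overlapped it.

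Among the members, most of those at least 2-fold lower in the fat-tail library were fat-tail identifiers, 299 of 306. The conditions given above for naming were met by 155 of the 654 fat-tail identifiers, 146 lower and 9 higher in the fat-tail library. These counts too say only from how many loci the examples were drawn. ENSOARG00000020789 (chromosome 3, 59304260 to 59314906) measured 1.16 FPKM (0.212 to 2.10) in the fat-tail library, on 6 implied fragments. The thin-tail table, with 114 bp added, gave 46.5 FPKM (37.9 to 55.1) on 117 implied fragments. A locus on chromosome 11 from 26321704 read 25.1 FPKM (22.9 to 27.3) in the thin-tail library, where 944 bp were added, and 0.201 (0 to 0.433) in the fat-tail library, on 3 implied fragments. On chromosome 22 (22515303 to 22548266) the values were 14.8 FPKM (13.5 to 16.2), with 2919 bp added in the thin-tail table, and 0.145 (0 to 0.650). Both low values have intervals that reach 0, so no fold is given. In these examples, as in 460 of the 654, the thin-tail model was the longer one.

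The opposite direction was rare among fat-tail identifiers. ENSOARG00000014546 (chromosome 18, 57665926 to 57667646) measured 4.29 FPKM (0.788 to 7.80) in the thin-tail and 19.6 (12.2 to 26.998) in the fat-tail library, a 4.56-fold difference on 6 and 28.0 implied fragments. A locus on chromosome 20 (9543485 to 9545402) measured 143 FPKM (130 to 156) and 226.9 (210.8 to 242.9), and one on chromosome 1 (104877279 to 104893078) measured 71.8 (68.7 to 75.01) and 101.6 (97.7 to 105.4), both within 2-fold. All 3 had identical ends, and their fragments and FPKM differed alike. Besides the chromosome 18 locus, 3 others were at least 2-fold higher with intervals that did not overlap, and they were singled out after their values were seen. They lay on chromosome 21 (25400717 to 25403895), at 0.819 and 3.91 FPKM, on chromosome 5 (13248116 to 13254108), at 0.884 and 4.16, and on chromosome 3 (134732401 to 134746733), at 0.493 and 2.43. Of the 6 fat-tail identifiers at least 2-fold higher, 1 had differing ends, on chromosome 21 (48802868 to 48805457), with 4.56 and 10.5 FPKM.

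The 3 members of each class with the highest mean log2 FPKM over both libraries were higher in the fat-tail library whichever table held the identifier, as deposited. With the identifier in the thin-tail table, a locus on chromosome 18 (21944717 to 21947821) measured 8894 FPKM (8753 to 9036) in the thin-tail and 13774.5 (13289 to 14260) in the fat-tail library. Loci on chromosome 11 (39016458 to 39020292), which another locus overlapped, and chromosome 14 (54305627 to 54309280) measured 5539 and 9194, and 2903 and 3957 FPKM. With the identifier in the fat-tail table, loci on chromosome 3 (68703907 to 68706233), 20 (8597217 to 8603003) and 9 (13276130 to 13278418) measured 3818 and 4677, 3882 and 4232, and 3042 and 4172 FPKM. The differences in FPKM ran from 1.09-fold to 1.66-fold, smaller than the 2-fold used for the counts, though the deposited intervals did not overlap. Implied fragments lay in the opposite order on chromosome 18 (15737.5 and 3225) and chromosome 11 (10989 and 2695). They lay much farther apart than FPKM on chromosome 20 (2886 and 11789) and chromosome 9 (2637 and 18037). On chromosomes 14 (8931 and 11456) and 3 (11343 and 13766) they differed much as FPKM did. Members close to equality also occurred in both classes. Thin-tail identifiers on chromosome 11 (38927630 to 38936179) and 3 (165245642 to 165253001) measured 219 and 218.7, and 140.6 and 135.9 FPKM. Fat-tail identifiers on chromosome 14 (62715245 to 62717113) and 5 (12692652 to 12699790) measured 21.1 and 21.3, and 29.5 and 28.8 FPKM. The assembled locus was longer in all 4, by 64, 35, 356 and 1197 bp. These 4 were picked for near-equal values, so they cannot show how model length goes with the value, which was not tested.

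Members on the mitochondrial genome were the only ones that could be named, since their ends equal those of genes in the RefSeq table. All 3 had identical ends in both libraries. The large ribosomal RNA (MT 1094 to 2667), part of the ribosome that makes mitochondrial proteins, carried the identifier in the thin-tail table. It read 64.0 FPKM (60.5 to 67.4) in the thin-tail and 727 (715.5 to 739) in the fat-tail library. The locus was among the 6 of 275 thin-tail identifiers that were 8-fold higher or more. That threshold was passed by 0 of 654 fat-tail identifiers and by 43 of the 11017 pairs within the limits. ND2 (MT 3910 to 4951), a subunit of complex I of the respiratory chain, also carried the identifier in the thin-tail table but read 267.7 FPKM (258 to 277) and 170.3 (162.8 to 177.8), lower in the fat-tail library. ND5 (MT 11754 to 13574), another subunit of complex I, carried it in the fat-tail table and read 225.9 FPKM (214.5 to 237.3) and 192.8 (182.8 to 202.8). Another locus overlapped that of ND5. Thus 1 of the 2 thin-tail identifiers on this genome ran against the majority of its class.

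Members occurred on every chromosome listed. Fat-tail identifiers outnumbered thin-tail ones on all 27, that is, 1 to 26 and X, and 27 further members lay on unplaced scaffolds. They made up between 3.97% (chromosome 9) and 9.75% (chromosome 8) of the pairs within the limits on a chromosome. Thin-tail identifiers made up between 0.599% (chromosome 23, 1 locus) and 4.76% (chromosome 22, 10 loci). The median of fat-tail identifiers was below 0, and below that of pairs assembled in both tables, on all 27 chromosomes. The median of thin-tail identifiers was above that of pairs assembled in both tables on 23 of the 27. It was above 0 on 20 of 27, and on 10 of the 12 chromosomes that had at least 10 thin-tail identifiers. The exceptions among these 12 were chromosomes 6 and 18, with medians of -0.002 over 13 and -0.06 over 12 loci. Chromosome 14 had 23 thin-tail identifiers with a median of 0.61 and 34 fat-tail ones with a median of -0.44. On chromosome 11 the medians were 0.48 over 15 and -0.89 over 28 loci, and on chromosome 20 they were 0.91 over 10 and -0.79 over 19 loci. The classes were therefore apart in the same order on each chromosome, as deposited.

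**Figure D5:**
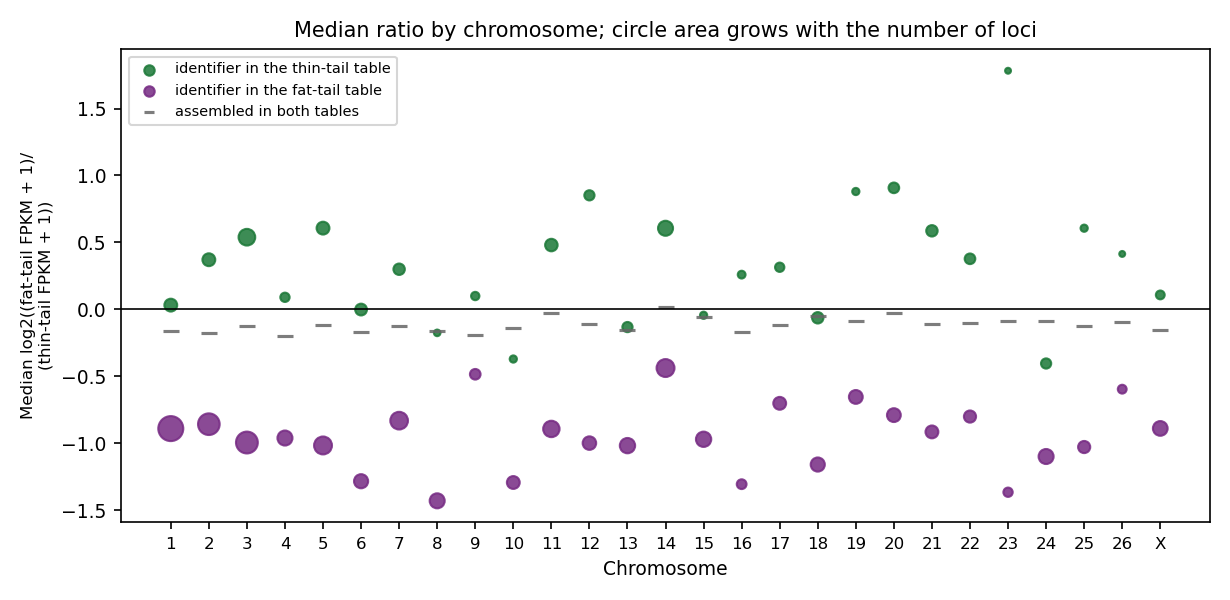
Median log2 ratio of the fat-tail over the thin-tail library, with 1 FPKM added (vertical), by chromosome (horizontal) for thin-tail identifiers, fat-tail identifiers and pairs assembled in both tables (dashes); circle area grows with the number of loci. The circle of thin-tail identifiers lies above that of fat-tail identifiers on all 27 chromosomes, and those of chromosomes 23 and 26 stand for 1 locus each.

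Members took a larger share of the 2-fold differences than of the loci, but the FPKM limit bears on these shares, which were not tested. Through the thin-tail library alone it was met by 303 of 654 fat-tail identifiers, against 525 of 9628 pairs assembled in both tables. Through the fat-tail library alone it was met by 55 of 275 thin-tail identifiers, against 167 of those 9628 pairs. Fat-tail identifiers were 5.94% of the pairs within the limits and 19.1% of the 1564 pairs at least 2-fold lower in the fat-tail library. Thin-tail identifiers were 2.50% of the pairs and 7.59% of the 817 that were at least 2-fold higher. Without the members, 749 pairs were 2-fold higher and 1258 lower, so that higher pairs made up 37.3% of the differences rather than 34.3%. The median ratio of the remaining pairs was -0.12. The members therefore carried part of the excess of lower loci, and most of it was present without them.

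The pairs on either side of each limit of the rule were as follows. The member nearest to the FPKM limit, on chromosome 19 (16348231 to 16353722), read 1.0002 and 0.121 FPKM in the thin-tail and fat-tail library. The pair just under it, on chromosome 13 (74383266 to 74396351), read 0.805 and 0.9999. The shortest member spanned 1011 bp, on chromosome 10, at 1.89 and 0.360 FPKM, and the pair just under that limit spanned 994 bp, on chromosome 11, at 184 and 266 FPKM. The smallest overlap of a member was 80.2%, on chromosome 1 (196244863 to 196384031), with 1.13 and 0.336 FPKM. An overlap of 79.9% kept out a locus on the same chromosome (99212747 to 99223858), with 8.21 and 6.84 FPKM.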

How the data were processed

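The deposited values are FPKM per locus, made by the authors from poly(A) RNA-seq, with a lower and an upper bound beside each value, per the file headers. The tools named are FastQC, TopHat and Cuffdiff, with no versions, per the submitters' processing notes. Genome build, annotation and normalization between libraries: not given in the sources used here. Table starts count from 0 (mitochondrial genes start 1 base later in RefSeq) and were converted. The tables hold 34927 and 36511 loci.

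From them, loci were paired by mutual best reciprocal overlap of at least 0.8, and 50 tied pairs were left out. Ratios are log2((fat-tail FPKM + 1)/(thin-tail FPKM + 1)). Implied fragments are (FPKM/SD) squared, with the upper bound taken as FPKM plus 2 SD. With 1 library per tail type no test was run. Matching and counting were tested on simulated data. Python 3.11.15, pandas 2.3.3, numpy 2.4.6, scipy 1.17.1 and matplotlib 3.10.9 were used.

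The members, classes and lists were chosen with earlier results of these data known. Loci were named by this rule: per class and direction, the 3 largest ratios among loci on assembled chromosomes with at least 5 FPKM in 1 library, intervals that do not overlap and no other locus at the position; per class, the 3 with the highest mean log2 FPKM and the 2 nearest to equality with at least 10 FPKM. Others were named after their values were seen. Alternatives covered pseudocount, FPKM, overlap and span limits, other loci at the position, scaling, fold threshold and implied fragments.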

Additional observations from a re-analysis of the deposited data

How the results depend on the processing

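No paired analysis was possible because 1 library per group was analysed here. Of 18 alternatives, the 3 on 1 FPKM in both libraries, on differing ends and on FPKM totals over all loci were added after the tables had been examined. The thin-tail identifiers' median ratio, 0.37 as reported, was 0.48 without a pseudocount, 0.16 with a pseudocount of 5, 0.079 without a minimum FPKM, 0.075 for identical ends, 0.49 for differing ends, 0.49 when centred on all compared pairs and -1.42 with equal FPKM totals over all loci. The fat-tail identifiers' median, -0.94 as reported, was in that order -1.47, -0.39, -0.51, -0.43, -1.17, -0.82 and -2.04. It was also -1.12 with at least 5 FPKM, -0.85 with an overlap of at least 0.95, -1.49 by implied fragments and -0.62 with 1 FPKM in both libraries. Loci under 200 bp held 94.2% of the thin-tail and 99.4% of the fat-tail total. Relative to the median of all compared pairs under that scaling, the classes stood at 0.86 and 0.24, since 1 FPKM added to low values damps their shift; over loci of at least 200 bp the scaling factor was 0.978 and no median changed side.

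The share of members lower in the table with the identifier, 82.7%, was 74.4% without a minimum FPKM, 67.7% for identical ends, 79.0% by implied fragments, 76.6% with 1 FPKM in both, 90.3% for differing ends and 72.8% with equal totals over all loci. The 62 thin-tail identifiers 2-fold higher became 26 with a pseudocount of 5, 38 with at least 5 FPKM, 17 for identical ends, 14 at 4-fold, 34 with 1 FPKM in both and 1 with equal totals. The 299 fat-tail identifiers 2-fold lower became 103, 150, 36, 93, 106 and 604 in that order, and 197 with an overlap of at least 0.95. The 7 thin-tail identifiers 2-fold lower became 20 without and 2 with a larger pseudocount, 3 with at least 5 FPKM, with 1 FPKM in both or with a span of at least 5000 bp, 4 with no other locus at the position, 32 by implied fragments, 2 at 4-fold, 1 for differing ends and 180 with equal totals. The 6 fat-tail identifiers 2-fold higher became 15 without a pseudocount or with FPKM summed over loci inside the locus, 1 with a larger pseudocount or for differing ends, 2 with at least 5 FPKM or 1 FPKM in both, 3 with a span of at least 5000 bp, 22 by implied fragments, and 0 at 4-fold or with equal totals. Stricter limits select fewer loci by construction; for the other changes the cause was not tested. The number of fragments limits each value: 292 members rested on fewer than 10 implied fragments in the fat-tail and 87 in the thin-tail library.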

Other observations

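Pairs with an identifier in exactly 1 table and a value listed at 0 lay outside the comparison. The value with the identifier was at 0 and the assembled one above 0 at 82 pairs with a thin-tail and 264 pairs with a fat-tail identifier. The reverse was found at 87 and 69 pairs, and 247 and 286 pairs were at 0 in both. Where only the identifier's value was at 0, the assembled locus had a median of 0.240 FPKM in the fat-tail and 0.289 FPKM in the thin-tail library, and it reached 1 FPKM at 21 of the 82 and 63 of the 264 pairs. Its highest value was 189.7 FPKM for thin-tail and 74.3 FPKM for fat-tail identifiers. Where only the assembled value was at 0, the locus with the identifier reached 1 FPKM at 13 and 7 pairs. Since an exact 0 may stand for a failed estimate, these loci are only said to be listed at 0.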
